A study of Mus musculus with 6 samples.

Results

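The RAB GTPases were examined here as 59 protein-coding genes, taken by symbol (Rab followed by a number and at most a further letter and digit) from 22046 protein-coding rows and 54532 rows in all. By the compartment each protein is best known for, 14 were placed in the ER-Golgi group, 26 in the endosome group (early, recycling and late endosome and lysosome), 14 in the secretory granule group (regulated granules, exocytic carriers and lysosome-related organelles) and 5 in a group of others. A few of these placements are simplifications, since several RABs work at more than 1 membrane. RAB proteins are small GTPases of the Ras superfamily that switch between a GDP-bound form in the cytosol and a GTP-bound form on a membrane. Exchange factors load them with GTP, GTPase-activating proteins return them to the GDP form, and effectors bound by the GTP form tether, move or fuse the vesicle. A geranylgeranyl lipid at the C-terminus anchors them, and GDP dissociation inhibitors extract them from membranes for reuse. In endocrine cells Rab3 and Rab27 proteins are known for the docking of hormone granules, while Rab1, Rab2 and Rab6 serve the route through the ER and Golgi that every secreted protein takes.

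The data are 6 bulk RNA-seq libraries made from cells labelled NIT-1, a mouse pancreatic beta cell line. The 3 EV_Tm libraries came from cells given hucMSC-EVs, vesicles released by mesenchymal stem cells of human umbilical cord, for 16 h and then Tm for 8 h, and the 3 PBS_Tm libraries from cells given PBS for 16 h and the same 8 h of Tm. Tm is read here as tunicamycin, which blocks N-glycosylation and so stresses the ER, and both groups had it, so each difference below compares vesicles with PBS in stressed cells. A characteristics label calls the PBS_Tm samples untreated, while their titles and the design text place them in the ER stress arm. Whether the replicates were separate cultures is not in the labels, so the p-values speak for the spread among these 6 libraries, which could be technical.

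The libraries held 28654248 to 32550268 counts. Of 18 beta-cell marker genes, 12 had at most 3 counts in every library and 11 of them none at all, Ins2, Iapp and Pdx1 included, and their summed level was 0.199 to 0.66 CPM (counts scaled to library size) in PBS_Tm and 0.31 to 1.34 in EV_Tm. Thus the defining transcripts of the labelled cell type were absent or nearly so in both groups. Among markers of other cells, the neuronal list summed to 69.6 to 80.7 CPM in PBS_Tm and 64.5 to 68.9 in EV_Tm, nearly all from Tubb3, and the acinar and duct list to 61.7 to 63.6 and 79.3 to 82.5, nearly all from Sox9, with 4 of its 6 genes at 0. The fibroblast list summed to 16 to 17.1 and 14.8 to 18.4 CPM, the endothelial list to 31.6 to 33.6 and 29 to 30.6, the macrophage list to 2.72 to 4.46 and 4.75 to 6.66 and the list of other islet cells to 0.563 to 0.912 and 0.739 to 1.17. The macrophage sum came nearly all from Cd68 and the endothelial sum mostly from Pecam1, with Kdr at 0. Within the fibroblast list Col1a1 was 1.7-fold lower and Col3a1 1.74-fold higher in EV_Tm. The part of these other cells in the RAB results was not tested.

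The RAB genes as a whole differed between the groups about as often as other genes did, and like them in both directions. Within the Rab1 and the Rab27 pairs 1 paralog rose and the other fell, while Rab11a and Rab11b both rose. Of the 59 members 48 had enough counts to be tested, and of these 10 rose, 15 fell and 23 did not pass (edgeR quasi-likelihood test, Benjamini-Hochberg adjusted p under 0.05 over 16844 genes). That is 52.1% of the members tested, against 47.4% of all genes tested, with 22.6% of all genes higher and 24.7% lower in EV_Tm. The members are all protein-coding, and with only protein-coding genes fitted 56.3% of 12728 genes passed. In that fit Rab8b was lost and Rab3d gained among the members. The median log2 fold change of the members tested was -0.04, against 0.01 for all genes. The changes were small. In 9 of the 25 that passed the difference was under 1.25-fold, in 6 it was at least 1.5-fold, against 14.7% of all genes tested that passed at that fold, and only Rab27b exceeded 2-fold. The 3 EV_Tm values lay apart from the 3 PBS_Tm values in all 25 that passed and in 6 that did not, where the groups were apart in 54.5% of all genes tested. Since a gene needed enough counts in either group to be tested, these counts do not describe the 11 members left out. In bulk libraries such as these, fewer cells of a type and less RNA per cell cannot be told apart.

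**Figure D1:**
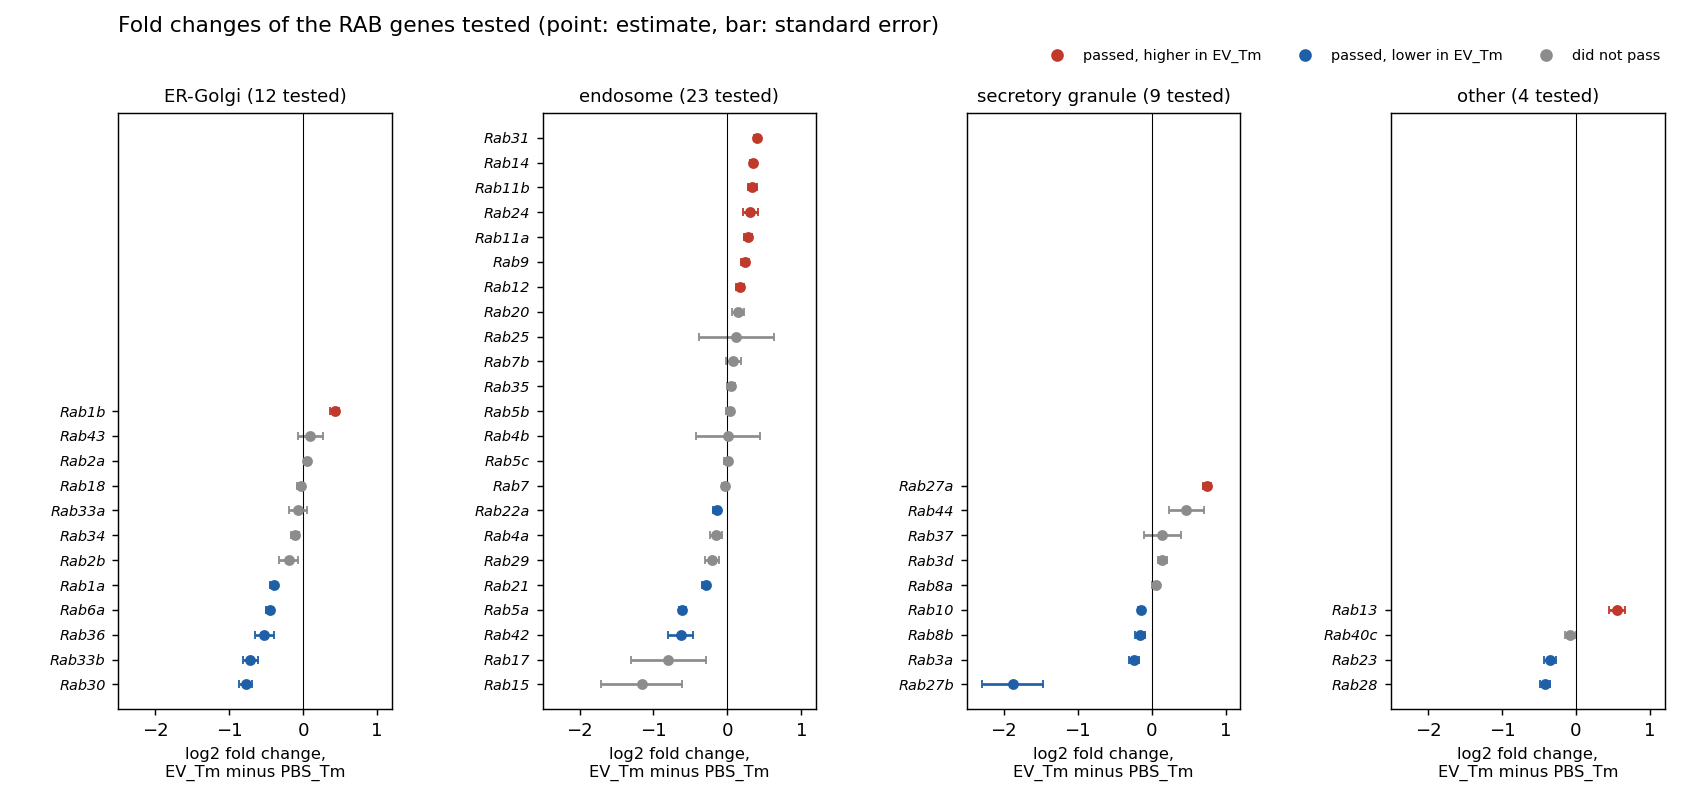
Log2 fold changes (EV_Tm minus PBS_Tm, horizontal axis) of the 48 RAB genes tested, in 4 panels by compartment, with points for estimates, bars for standard errors and colour for the outcome of the test. The ER-Golgi panel has 5 genes that fell and 1 that rose, the endosome panel 4 that fell and 7 that rose, and Rab27a and Rab27b lie at opposite ends of the secretory granule panel.

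The family as a whole took a similar part of the transcripts in both groups. The 59 genes held 0.303%, 0.311% and 0.308% of counts in the PBS_Tm libraries and 0.318%, 0.313% and 0.315% in the EV_Tm libraries, and with libraries scaled by TMM factors the sum was 3120 ± 48 CPM in PBS_Tm and 3111 ± 27 in EV_Tm (mean ± SD, n = 3 each). The share of plain counts was higher in each EV_Tm library and the scaled sum overlapped, so the direction of this small difference depends on the scaling. Inside that sum the ER-Golgi and endosome sums differed in direction. The ER-Golgi genes summed to 880.1 ± 20.7 CPM in PBS_Tm and 780.4 ± 12.1 in EV_Tm, and the endosome genes to 1642 ± 43 and 1741 ± 20. The secretory granule genes summed to 484.9 ± 11.2 and 489.6 ± 4.8, a difference within the spread of the PBS_Tm libraries.

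Levels per kilobase of gene length (RPKM, from TMM-scaled CPM) show which RAB transcripts were abundant. Rab7, which directs late endosomes and lysosomes, was the highest at 109.7 ± 6.0 RPKM in PBS_Tm and 106.8 ± 1.9 in EV_Tm, and Rab2a, which acts between ER and Golgi, followed at 89.6 ± 0.7 and 92.9 ± 4.1. These are the leading members of their compartments, and neither passed the test (log2 fold change -0.04 ± 0.04 and 0.05 ± 0.04, SE, adjusted p = 0.491 and 0.338 in edgeR). Of the 50-base windows of Rab7 transcripts, 12.7% also occur in another gene, mostly Rab7-ps1, with 1244 counts against 52657 for Rab7. Next in PBS_Tm came Rab1a at 58.3 ± 4.0, Rab10 at 54.7 ± 2.1, Rab5c at 54.1 ± 3.1 and Rab18 at 51.2 ± 0.1 RPKM, neighbours whose ranges lie close together. In PBS_Tm 28 members, and in EV_Tm 27, reached 10 RPKM. At the other end Rab3c, Rab9b, Rab32, Rab38 and Rab39 had no count in any library, which allows up to 3 counts or 0.105 CPM in a library (counting error only), and Rab3b, Rab6b, Rab19, Rab26, Rab39b and Rab40b had too few counts to test. Rab39b had 2 counts in each EV_Tm library and none in PBS_Tm, all under that limit.

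**Figure D2:**
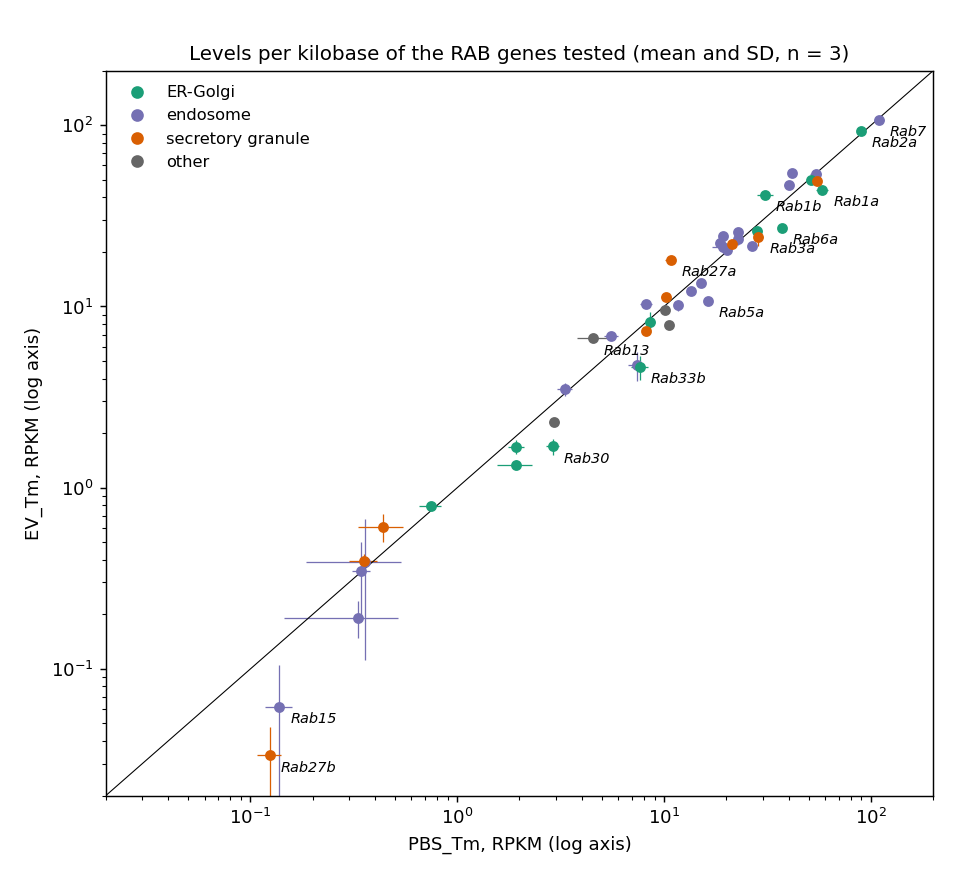
Mean level of each tested RAB gene in PBS_Tm (horizontal) and EV_Tm (vertical), in RPKM on log axes, with SD bars (n = 3 each), coloured by compartment, and a line of equal levels. Rab7 and Rab2a sit at the top on the line, Rab27a lies above it, and Rab5a, Rab30, Rab33b and Rab27b lie below it.

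In the ER-Golgi group 5 of 12 genes tested fell (Rab1a, Rab6a, Rab30, Rab33b and Rab36), Rab1b alone rose and 6 did not pass (median log2 fold change -0.16). That is 41.7% lower and 8.33% higher, against 24.7% and 22.6% of all genes tested. The abundant Rab2a and Rab18 were among those that did not pass.

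Rab1a (chromosome 11, 20201432 to 20226856, GRCm38 here and below), the GTPase that recruits tethers to vesicles arriving from the ER, was at 204, 230.3 and 230.0 CPM in the PBS_Tm libraries and at 177, 164 and 163 in the EV_Tm libraries. All EV_Tm values lay below all PBS_Tm values, with a log2 fold change of -0.40 ± 0.05 (SE, adjusted p = 2.32e-07 in edgeR). Its paralog Rab1b (chromosome 19, 5099207 to 5106996), which works at the same step, went the opposite way. Rab1b stood at 61.1, 57.2 and 51.5 CPM in PBS_Tm and at 75.7, 74.8 and 77.5 in EV_Tm, its log2 fold change being 0.43 ± 0.06 (SE, adjusted p = 1.56e-06 in edgeR), so that here the EV_Tm libraries were the high ones. Per length, the ratio of Rab1a to Rab1b was 1.61, 1.95 and 2.16 in PBS_Tm and 1.13, 1.06 and 1.02 in EV_Tm. The pair thus stood at nearly equal levels in EV_Tm, with Rab1a in excess in PBS_Tm. The exact two-sided permutation test on this ratio gave p = 0.1, the smallest value 3 against 3 libraries can give (0.14 after adjustment over 10 paralog ratios).

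The Rab1 transcripts are similar but not interchangeable to a read. Their coding sequences were 76.1% identical and shared no run longer than 38 bases. The 81 bases around the codons of the P-loop, the nucleotide-binding loop that all RABs share, show how the differences are spread. They are given 5′ to 3′ from GENCODE M21 transcripts, with capitals in Rab1b where it differs from Rab1a, at 21 of 81 bases.
Rab1a: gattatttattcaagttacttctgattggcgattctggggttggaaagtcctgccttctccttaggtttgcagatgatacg
Rab1b: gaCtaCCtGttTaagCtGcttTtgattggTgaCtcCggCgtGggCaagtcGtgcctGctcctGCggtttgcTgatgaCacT

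Rab6a (chromosome 7, 100607410 to 100641268), which governs transport at the trans-Golgi and back to the ER, was at 133, 140.4 and 143 CPM in PBS_Tm and 104, 96.4 and 103 in EV_Tm. Its log2 fold change was -0.46 ± 0.05 (SE, adjusted p = 1.62e-08 in edgeR), with the groups well apart. Reads from Mrpl48, an overlapping gene on the other strand with 2858 counts against 22403 for Rab6a, could be confused with it, and 19% of the 50-base windows of Rab6a transcripts also occur in another gene. Mrpl48 itself had a log2 fold change of 0.15 and did not pass. The paralog Rab6b had 33 counts in all and was not tested.

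Rab30 and Rab33b, lesser Golgi RABs, had the largest falls of the group. Rab30, linked to Golgi structure, was at 27, 26.7 and 30.1 CPM in PBS_Tm and 18.1, 16.0 and 14.8 in EV_Tm, 1.71-fold lower (adjusted p = 7.46e-08 in edgeR). Rab33b, a Golgi RAB that also binds the autophagy protein ATG16L1, was at 24.1, 27.7 and 29.3 CPM in PBS_Tm and 19.3, 14.6 and 15.4 in EV_Tm, 1.64-fold lower (adjusted p = 1.65e-06 in edgeR). Of the transcript windows of Rab33b, 21.2% occur in another gene, mostly a little-expressed overlapping transcript. Its paralog Rab33a did not pass (log2 fold change -0.07 ± 0.12, SE, adjusted p = 0.674 in edgeR), and the ratio of Rab33a to Rab33b per length went from 1.13 ± 0.16 to 1.81 ± 0.46 (mean ± SD, n = 3 each, exact permutation p = 0.1). Rab36, a less studied Golgi-associated RAB, averaged 11.9 ± 2.3 CPM in PBS_Tm and 8.28 ± 0.47 in EV_Tm (adjusted p = 0.0014 in edgeR). Rab18, found at the ER and on lipid droplets, averaged 116 ± 0.3 against 113 ± 5 CPM (adjusted p = 0.563 in edgeR). Rab34, Rab2b and Rab43 had log2 fold changes of -0.12, -0.20 and 0.09 and did not pass, with the groups apart in Rab34. Of the transcript windows of Rab2b and Rab43, 57% and 74.5% occur in another gene, so their reads are uncertain. Rab2b also overlaps Tox4 on the other strand, which had 20134 counts against 1401 for Rab2b.

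In the endosome group 7 of 23 genes tested rose, 4 fell and 12 did not pass (median log2 fold change 0.03). That is 30.4% higher and 17.4% lower, against 22.6% and 24.7% of all genes tested. Those that rose were Rab31, Rab14, Rab11a, Rab11b, Rab9, Rab12 and Rab24, and those that fell were Rab5a, Rab21, Rab22a and Rab42. The calls thus went in both directions within the group, and the Rab5 paralogs parted.

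Rab5a (chromosome 17, 53479234 to 53507680), the GTPase that defines early endosomes and their fusion, was at 83.6, 88.04 and 86.7 CPM in PBS_Tm and 56.8, 54.9 and 57.7 in EV_Tm. It was 1.52-fold lower in EV_Tm (log2 fold change -0.61 ± 0.05, SE, adjusted p = 4.47e-10 in edgeR). Its paralogs, which can act at the same membrane, did not pass the test. Rab5b was at 83.7, 85.8 and 83.2 CPM in PBS_Tm and 85.2, 85.3 and 87.7 in EV_Tm (log2 fold change 0.03 ± 0.05, SE, adjusted p = 0.623 in edgeR). Rab5c, the most abundant of the 3 per length, was at 118, 126 and 112 CPM in PBS_Tm and 119, 121 and 117 in EV_Tm (log2 fold change 0.00 ± 0.05, SE, adjusted p = 0.972 in edgeR). In both the groups overlapped. Of the Rab5b transcript windows, 9.8% occur in Gm13991, with 468 counts against 15875 for Rab5b. The ratio of Rab5a to Rab5b per length was 0.797, 0.818 and 0.831 in PBS_Tm and 0.532, 0.513 and 0.525 in EV_Tm (exact permutation p = 0.1, 0.14 adjusted over the 10 ratios). Against Rab5c the ratio went from 0.303 ± 0.016 to 0.198 ± 0.008 (mean ± SD, n = 3 each), with the same p.

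The 3 Rab5 genes can be told apart in their transcripts, as the same 81-base stretch shows. Capitals mark the bases that differ from Rab5a, 15 in Rab5b and 18 in Rab5c.
Rab5a: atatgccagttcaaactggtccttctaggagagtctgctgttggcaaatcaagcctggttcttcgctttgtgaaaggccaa
Rab5b: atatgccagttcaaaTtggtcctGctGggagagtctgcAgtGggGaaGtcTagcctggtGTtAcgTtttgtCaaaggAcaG
Rab5c: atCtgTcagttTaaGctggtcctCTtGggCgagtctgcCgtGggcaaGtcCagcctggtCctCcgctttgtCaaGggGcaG

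Promoter sequence was compared as well, since the Rab5 paralogs moved apart. RefSeq promoter windows on GRCm38.p6 (250 bases before to 50 after the start) were found for 48 members, 60 windows in all, and were searched on both strands for the ER stress element (CCAAT and CCACG with 9 bases of any kind between), its second form (ATTGG and CCACG with 1 base between), the core of the unfolded protein response element (TGACGTGG), the ATF4-CEBP composite (TGATGCAAT) and the core of the lysosomal CLEAR element (GTCACGTG). The first 4 were in none of the 60 windows, against 0.119%, 0.0365%, 0.676% and 0.192% of all 32851 windows. At shares this low 60 windows would mostly hold none in any case, so no lack of these elements can be read from this. The CLEAR core was in 3 of the 60 windows, those of Rab5a, Rab21 and Rab24, against 2.25% of all windows, and in neither Rab5b nor Rab5c. Because the core and its reverse complement overlap in a palindrome, 1 place can match on both strands. The bases just before the start are shown, 5′ to 3′ on the gene's strand with each match in capitals, for Rab5a (chr17:53478984-53479233, plus strand), Rab5b (chr10:128696269-128696418, minus strand), Rab5c (chr11:100738216-100738365, minus strand) and Rab21 (chr10:115315592-115315741, minus strand).
Rab5a: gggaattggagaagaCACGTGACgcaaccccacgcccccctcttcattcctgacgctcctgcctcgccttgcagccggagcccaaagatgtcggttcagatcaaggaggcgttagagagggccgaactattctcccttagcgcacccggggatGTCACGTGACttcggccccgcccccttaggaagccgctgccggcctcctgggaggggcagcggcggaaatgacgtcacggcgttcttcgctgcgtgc
Rab5b: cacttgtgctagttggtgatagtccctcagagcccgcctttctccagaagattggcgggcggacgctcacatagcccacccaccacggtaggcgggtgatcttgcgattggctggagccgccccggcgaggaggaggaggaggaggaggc
Rab5c: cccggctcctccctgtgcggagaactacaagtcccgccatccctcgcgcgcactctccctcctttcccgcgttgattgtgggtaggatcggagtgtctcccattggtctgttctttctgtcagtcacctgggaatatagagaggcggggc
Rab21: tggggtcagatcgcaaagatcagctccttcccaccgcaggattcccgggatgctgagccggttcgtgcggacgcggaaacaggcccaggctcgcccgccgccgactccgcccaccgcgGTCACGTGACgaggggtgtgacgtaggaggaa

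Of the genes with the CLEAR letters Rab5a and Rab21 fell and Rab24 rose, and the Rab24 call is uncertain, as described below. Any part of these letters in the changes was not tested. A match in these letters is a description of the sequence and shows no binding.

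Rab21, an early endosome RAB of integrin traffic, was at 128, 138 and 136 CPM in PBS_Tm and 111, 109.7 and 107 in EV_Tm (log2 fold change -0.30 ± 0.05, SE, adjusted p = 7.70e-06 in edgeR). Rab22a, which acts between early and recycling endosomes, was only 1.11-fold lower (97.3 ± 1.1 against 87.8 ± 0.7 CPM, SD, n = 3 each, adjusted p = 0.0103 in edgeR). Rab42, a RAB of unsettled function, stood at 6.16, 5.27 and 5.38 CPM in PBS_Tm and 4.27, 2.97 and 3.60 in EV_Tm, a low level, and was 1.55-fold lower (adjusted p = 0.0038 in edgeR).

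Of the genes that rose, Rab31 (chromosome 17, 65651729 to 65772752) and Rab14 (chromosome 2, 35180205 to 35201120) were the most abundant in CPM. Rab31, a relative of Rab5 that carries cargo between the trans-Golgi and endosomes, was at 161, 161 and 154 CPM in PBS_Tm and 215, 208 and 204 in EV_Tm (log2 fold change 0.40 ± 0.04, SE, adjusted p = 2.21e-08 in edgeR). Rab14, which also works between Golgi and endosomes, was at 253, 263 and 271 CPM in PBS_Tm and 350, 322 and 332 in EV_Tm (log2 fold change 0.35 ± 0.04, SE, adjusted p = 1.57e-07 in edgeR). In both genes each EV_Tm library exceeded each PBS_Tm library.

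The recycling pair Rab11a and Rab11b rose side by side, unlike Rab1 and Rab5. Rab11a was at 53, 57.9 and 55.8 CPM in PBS_Tm and 71.8, 63.9 and 66.2 in EV_Tm (adjusted p = 3.41e-04 in edgeR). Rab11b was at 49.3, 53.8 and 47.2 CPM in PBS_Tm and 64.1, 60.6 and 64.5 in EV_Tm (adjusted p = 5.44e-05 in edgeR). Their log2 fold changes were 0.28 ± 0.06 and 0.33 ± 0.06 (SE), and the ratio between them, 2.27 ± 0.13 in PBS_Tm and 2.18 ± 0.10 in EV_Tm (mean ± SD, n = 3 each), overlapped between the groups (exact permutation p = 0.4). A processed pseudogene, Rab11b-ps2, holds most of the 13.6% of Rab11b transcript windows that occur elsewhere. It was counted at 5.71 CPM in PBS_Tm and 7.18 in EV_Tm and had a log2 fold change of 0.33, so reads between these copies are uncertain.

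Rab9, which returns mannose 6-phosphate receptors from late endosomes to the Golgi, was 1.18-fold higher and Rab12, a RAB of recycling and lysosomal delivery, 1.13-fold higher (adjusted p = 6.50e-04 and 0.00798 in edgeR). Rab24, linked to autophagy, averaged 11.2 ± 0.9 CPM in PBS_Tm and 13.9 ± 0.4 in EV_Tm (adjusted p = 0.0149 in edgeR). That call is uncertain, since 49.6% of its transcript windows lie in Prelid1, an overlapping gene on the other strand with 28180 counts against 2339 for Rab24, and Prelid1 rose too (log2 fold change 0.34). Without PBS_Tm replicate 3, Rab24 no longer passed. Among genes of this group that did not pass, Rab35, Rab7b and Rab20 had log2 fold changes of 0.05, 0.08 and 0.15, and Rab4a and Rab29 had values of -0.16 ± 0.08 and -0.21 ± 0.09 (SE) with the groups apart. Rab4b, Rab15, Rab17 and Rab25 had 86 to 127 counts in all, and with standard errors of 0.43 to 0.55 in log2 fold change only large differences were detectable. Rab15 had a log2 fold change of -1.16 ± 0.55 (SE, adjusted p = 0.0873 in edgeR) with the groups apart. Of the transcript windows of Rab20 and Rab4b, 22.9% and 58.1% occur in another gene.

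The secretory granule group held the largest fall and the largest rise among the RAB genes that passed. Of 9 genes tested Rab27a rose, Rab27b, Rab3a, Rab10 and Rab8b fell, and Rab8a, Rab3d, Rab37 and Rab44 did not pass. That is 11.1% higher and 44.4% lower, against 22.6% and 24.7% of all genes tested.

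Rab27a (chromosome 9, 73044854 to 73097629), which docks dense-core granules and lysosome-related organelles at the plasma membrane and serves exosome release, was at 43.1, 39.0 and 43.0 CPM in PBS_Tm and 69.8, 69.9 and 70.5 in EV_Tm. It had the largest rise of the members tested (log2 fold change 0.75 ± 0.06, SE, adjusted p = 8.44e-11 in edgeR), and the EV_Tm libraries were nearly alike. Rab27b (chromosome 18, 69979131 to 70141605), a paralog with related roles, had 44, 34 and 47 counts in PBS_Tm and 6, 11 and 16 in EV_Tm. It was 3.68-fold lower (log2 fold change -1.88 ± 0.42, SE, adjusted p = 5.52e-04 in edgeR), at levels of 1.32 ± 0.18 and 0.356 ± 0.153 CPM, so that the size of its fall is imprecise. Per length Rab27a was 87.3 ± 7.2 times the level of Rab27b in PBS_Tm and 632 ± 320 times in EV_Tm (mean ± SD, n = 3 each, exact permutation p = 0.1), and the latter spread comes with the few Rab27b counts. Hence nearly all transcripts of this pair were Rab27a in both groups.

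Rab3a (chromosome 8, 70754679 to 70758677), the main RAB of synaptic and hormone granules, was at 65.9, 65.3 and 59.8 CPM in PBS_Tm and 47.3, 55.9 and 58.8 in EV_Tm (log2 fold change -0.24 ± 0.07, SE, adjusted p = 0.00565 in edgeR). EV_Tm replicate 1 was the lowest and the groups were barely apart. Without that library Rab3a no longer passed. An overlapping gene on the other strand, Mpv17l2, had 5876 counts against 10976 for Rab3a, and did not pass (log2 fold change 0.17). None of the 50-base windows of Rab3a transcripts occurs in another gene. Rab3d, the granule RAB of exocrine and endocrine cells, was at 44.5, 40.3 and 44.3 CPM in PBS_Tm and 48.0, 45.9 and 48.7 in EV_Tm and did not pass (log2 fold change 0.14 ± 0.06, SE, adjusted p = 0.0644 in edgeR). The ratio of Rab3a to Rab3d per length was 2.79, 3.05 and 2.54 in PBS_Tm and 1.86, 2.30 and 2.28 in EV_Tm (exact permutation p = 0.1). Rab3b had 56 counts in all and Rab3c none, so Rab3a and Rab3d supplied nearly all Rab3 transcripts.

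Rab10, which moves carriers to the plasma membrane, was the most abundant of the group per length and fell by a small step, from 198, 184 and 195 CPM in PBS_Tm to 178, 171 and 173 in EV_Tm (adjusted p = 0.0074 in edgeR). Rab8b, a RAB of exocytic carriers and cilia, was 1.12-fold lower with an adjusted p of 0.0484 in edgeR, and this call was lost under most alternatives. Its paralog Rab8a did not pass (99.5 ± 3.3 against 103 ± 5 CPM). Rab37 and Rab44, both at low levels of 1.89 ± 0.30 and 2.22 ± 0.55 CPM in PBS_Tm (mean ± SD, n = 3), did not pass either. An antisense gene, Rab10os, had 2962 counts against 34143 for Rab10. It holds the 2.54% of Rab10 transcript windows that occur elsewhere, and only there reads cannot be told apart without strand. Over the 10 paralog ratios computed, 7 did not overlap between the groups, each at the smallest exact permutation p of 0.1, and those of Rab2, Rab4 and Rab11 did. Rab5a enters both Rab5 ratios, so its fall counts in each. For single genes the share that did not overlap was 54.5% of all tested, and no such share was computed for ratios. The count of ratios is thus read as a description only.

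**Figure D3:**
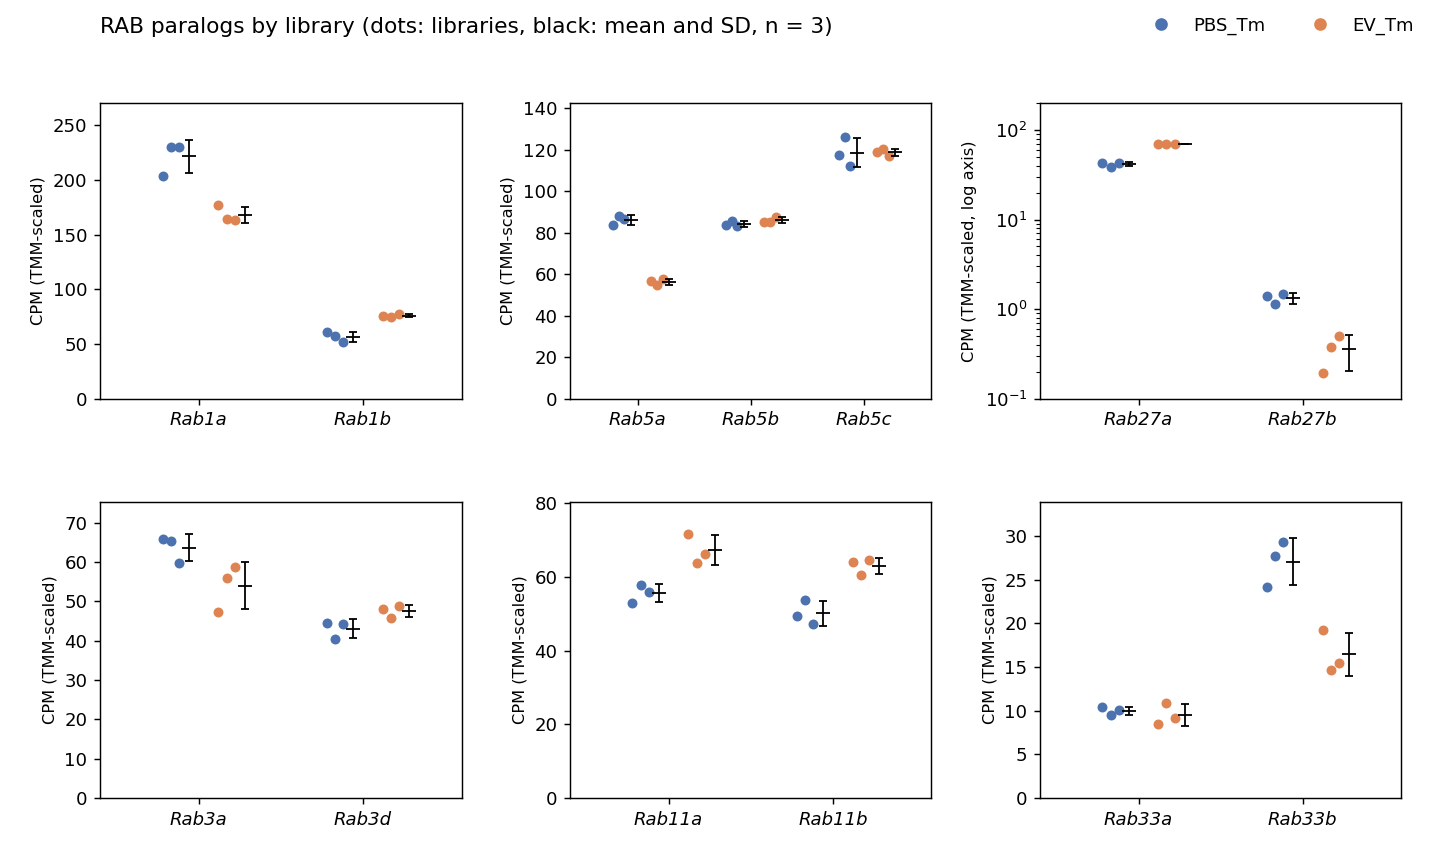
TMM-scaled CPM of 6 sets of RAB paralogs in each library, PBS_Tm in blue and EV_Tm in orange, with mean and SD beside them in black (n = 3 each). The axis of the Rab27 panel is logarithmic and the others start at 0. Rab1a and Rab1b move toward each other, Rab5a drops while the points of Rab5b and of Rab5c overlap between the groups, Rab27a and Rab27b part, and Rab11a and Rab11b rise together.

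Of the 4 other genes tested, Rab13 rose, Rab28 and Rab23 fell and Rab40c did not pass. Rab13, a RAB of tight junctions and recycling, was at 12.4, 9.41 and 9.46 CPM in PBS_Tm and 15.7, 14.9 and 15.4 in EV_Tm, 1.47-fold higher (adjusted p = 1.90e-04 in edgeR). The ciliary RAB Rab28 was at 50.02, 47.9 and 45.8 CPM in PBS_Tm and 35.8, 37.4 and 34.3 in EV_Tm (log2 fold change -0.42 ± 0.06, SE, adjusted p = 6.66e-06 in edgeR). Rab23, which restrains Hedgehog signalling and also acts at cilia, was 1.28-fold lower (adjusted p = 8.40e-04 in edgeR).

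The genes that work on RABs were read from 7 lists in the same fit. Their counts stand beside 22.6% of all genes tested that rose and 24.7% that fell. Of 10 prenylation and recycling factors tested 2 rose (20%) and 4 fell (40%), and the median log2 fold change was -0.09. The RAB escort gene Chml was 1.33-fold higher (adjusted p = 0.00223 in edgeR). Gdi2, a GDP dissociation inhibitor, was 1.09-fold lower (adjusted p = 0.0176 in edgeR). Rabggta and Rabggtb, the subunits of the enzyme that attaches the lipid, were 1.23-fold and 1.13-fold lower, and Rabif, a RAB chaperone, 1.27-fold lower (adjusted p = 5.38e-04, 0.00253 and 2.23e-04 in edgeR).

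Among exchange factors 10 of 44 tested rose (22.7%) and 17 fell (38.6%), with a median of -0.09. The largest fall was that of Dennd4a, an exchange factor for Rab10, which went from 118 ± 3 to 43.4 ± 1.7 CPM (mean ± SD, n = 3 each, adjusted p = 3.04e-17 in edgeR). Madd, which activates Rab3 and Rab27 proteins, was 1.54-fold lower (adjusted p = 2.77e-06 in edgeR). The TRAPP complexes activate Rab1 and related RABs, and their subunits split. Trappc1 was 2.52-fold and Trappc6a 1.43-fold higher, while Trappc8 was 1.30-fold lower (adjusted p = 2.76e-12, 3.55e-06 and 1.65e-06 in edgeR). St5, a DENN-domain gene, was 1.29-fold higher. Of the GTPase-activating and other TBC-domain genes 15 of 32 tested fell (46.9%) and 2 rose (6.25%), Tbc1d14 and Tbc1d2b (median -0.12). Tbc1d2b no longer passed without EV_Tm replicate 1 or PBS_Tm replicate 2. Usp6nl, which acts on Rab5, was 1.45-fold lower, Tbc1d2, which acts on Rab7, 2.01-fold lower and Tbc1d8b 1.52-fold lower (adjusted p = 7.38e-10, 3.89e-08 and 4.83e-10 in edgeR).

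ER-Golgi effectors had the highest share of calls of the 7 lists, and mostly downward. Of 15 tested 11 fell, Kif20a, Bicd2 and Gcc2 rose and Ocrl did not pass (median log2 fold change -0.52). These 93.3% called stand beside 47.4% of all genes, or 56.3% where only protein-coding genes were fitted. The call of Gcc2 (adjusted p = 0.0495 in edgeR) was lost with no filter, with the DESeq2 test, with the replicate block and without any of EV_Tm replicates 1, 2 and 3 and PBS_Tm replicates 1 and 2. Uso1, the p115 tether recruited by Rab1, averaged 309 ± 3 CPM in PBS_Tm and 99.5 ± 0.7 in EV_Tm, 3.10-fold lower (mean ± SD, n = 3 each, adjusted p = 1.97e-20 in edgeR). The Golgi stacking gene Gorasp2 was 1.99-fold lower and the trans-Golgi tether Golga4 1.72-fold lower (adjusted p = 1.80e-14 and 1.31e-13 in edgeR). The falls of Uso1, Gorasp2 and Golga4, picked by smallest p, were larger than the 1.32-fold fall of Rab1a. This difference between genes was not tested. Others of the 11 fell by less than Rab1a, down to 1.17-fold for Gorasp1.

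Of 25 endosome effectors tested 12 fell (48%) and 2 rose (8%), Appl2 and Rabep2 (median -0.14). The 3 with the smallest p all bind Rab5, but not every Rab5 binder on the list fell. Appl2 and Rabep2 rose (log2 fold change 0.22 and 0.26, adjusted p = 4.64e-04 and 0.0132 in edgeR), and Ankfy1 did not pass (-0.02). The call of Rabep2 was lost without EV_Tm replicate 3, PBS_Tm replicate 2 or PBS_Tm replicate 3. Rbsn, which links Rab5 to membrane fusion, averaged 104 ± 2 CPM in PBS_Tm and 66.6 ± 1.1 in EV_Tm, Eea1, the tether of early endosomes, went from 141 ± 7 to 90.9 ± 3.9 CPM and Appl1 from 149 ± 8 to 108 ± 1 (mean ± SD, n = 3 each, adjusted p = 4.62e-11, 9.20e-11 and 1.31e-08 in edgeR). Beside the 1.52-fold fall of Rab5a, these falls were 1.56-fold, 1.55-fold and 1.37-fold. Secretory granule effectors went both ways, with 5 of 18 tested higher (27.8%) and 7 lower (38.9%), and a median of -0.09. Unc13d, an effector of Rab27 in granule release, averaged 15.1 ± 1.8 CPM in PBS_Tm and 25.7 ± 0.7 in EV_Tm (mean ± SD, n = 3 each, adjusted p = 1.27e-07 in edgeR). The vesicle priming gene Unc13a was 2.02-fold higher and Doc2b, a calcium sensor of exocytosis, 1.43-fold higher, while Optn, which binds Rab8, was 1.79-fold lower and the exocyst genes Exoc6 and Exoc2 1.61-fold and 1.27-fold lower (adjusted p = 6.32e-15, 3.01e-07, 5.76e-09, 1.79e-07 and 5.09e-05 in edgeR). Sytl4, the Rab27 effector named for granules, had no counts in any library. Of the RAB kinase and phosphatase genes Lrrk1 and Ppm1h fell, by 1.18-fold and 1.30-fold, Ppm1m was 1.12-fold higher, and Lrrk2 and Ppm1j did not pass. The Ppm1m call (adjusted p = 0.0347 in edgeR) was lost with no filter, with the replicate block and with any 1 of the 6 libraries left out.

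**Figure D4:**
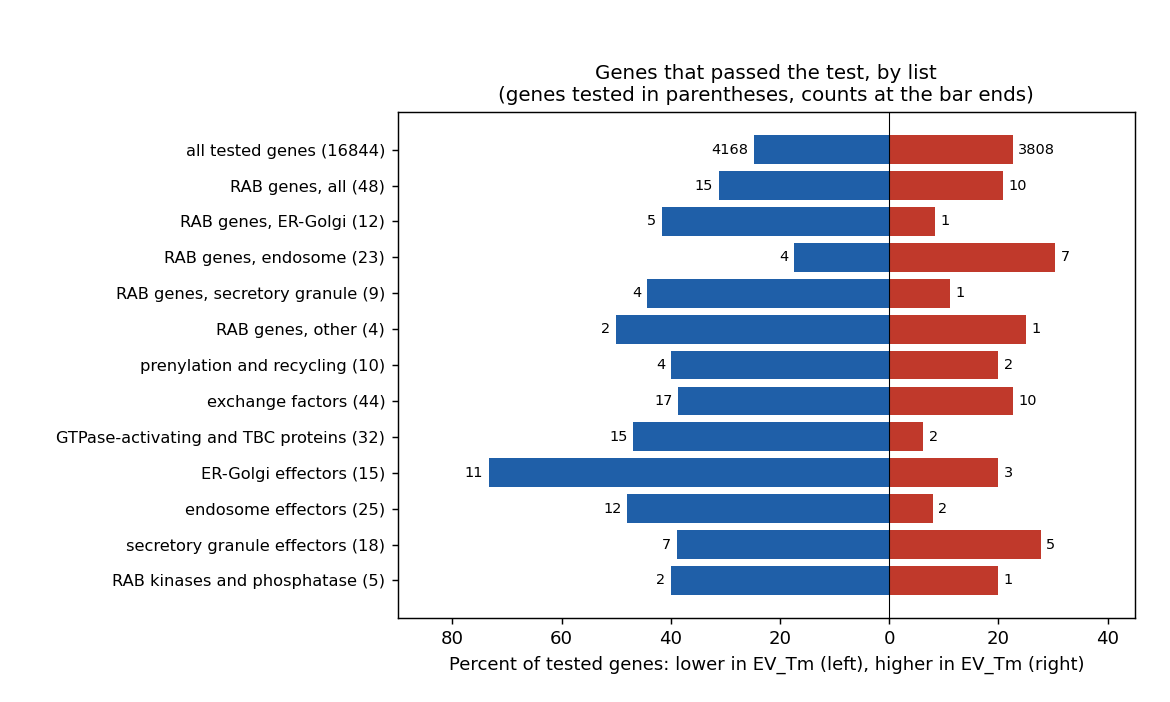
Percent of tested genes in each list that passed the test, lower in EV_Tm to the left and higher to the right, with the counts at the bar ends and the number tested in parentheses. The ER-Golgi effectors have 11 genes lower of 15, and the RAB genes as a whole (15 lower, 10 higher of 48) lie near all tested genes.

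The RAB genes that fell were longer than the others, with a median length of 4733 bases against 3012.5 for those that rose and 2610 for those that did not pass. Across all genes tested the median log2 fold change was 0.25 for genes up to 1000 bases and -0.07 for those over 6000. Between these bins the share of genes that fell went from 4.19% to 37.8%, and the share that rose only from 19.7% to 23.4%. The ER-Golgi effectors were mostly long too, with only Golga5 (3447 bases) and Kif20a (3796) under 4000 bases. Among all genes tested of 4000 to 6000 bases 30.2% fell. The part of length in the RAB and effector results was not tested. In the paralog sets where 1 member fell and another did not, the member that fell was the longest for Rab1 (Rab1a, 3799 bases), Rab5 (Rab5a, 5270), Rab27 (Rab27b, 10679) and Rab33 (Rab33b, 3538) and by a small margin for Rab8 (Rab8b, 4733, against 4678 for Rab8a), while for Rab3 the shorter Rab3a (2226 bases, against 4196 for Rab3d) fell. Rab14, the longest member tested at 13589 bases, and Rab11b at 6109 bases rose.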

How the data were processed

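The authors trimmed adaptors and mapped with HISAT2 2.2.1, per the labels' protocols. The submitters' processing notes list featureCounts 2.0.6 and mm39. Deposited were raw counts of each gene in each sample, and, as other values, each gene's start, end and length. Strandedness and the handling of multi-mapped reads are unknown here, so overlapping genes and close copies are uncertain. Coordinates are read as GRCm38, because 53585 of 54495 shared gene IDs (57 of 59 RAB genes) have those of GENCODE M21 on that build.

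Date-like symbols (27) were restored by gene ID. All 6 libraries entered edgeR 4.0.16 (R 4.3.3) with filterByExpr, TMM scaling and a two-sided quasi-likelihood F test, adjusted by Benjamini-Hochberg over 16844 genes; the pipeline was tested on simulated data. SE is the absolute log2 fold change divided by the root of F. CPM is TMM-scaled and RPKM divides it by the deposited length. The common coefficient of biological variation was 6.05%. At the depths here 3 counts equal 0.0922 to 0.105 CPM. Members, compartments and lists were chosen with earlier results of these data known. Full values go to up to 4 genes per compartment and direction by smallest p, the most abundant one and set paralogs, and to up to 3 per direction in each partner list. Gdi2, Gorasp1, Rabep1, Sytl4, Rab33a, Rab36, Rab42 and the members and partners that did not pass were named after their values were seen. A partner gene that the rule selects is not reported here.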

Additional observations from a re-analysis of the deposited data

How the results depend on the processing

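The 25 calls among RAB genes were recomputed under 15 alternatives. These were other scalings (DESeq2 size factors, plain library size), other filters (none, or at least 1 CPM in 3 libraries), other tests (DESeq2 1.42.0, limma-voom 3.58.1), a replicate block, each library left out, an adjusted p under 0.01, and protein-coding genes alone. None of the 25 turned direction, and 22 to 25 were still called. Rab8b was lost under 12 alternatives, Rab22a with plain library size and at 0.01, Rab24 without PBS_Tm replicate 3 and at 0.01, and Rab3a and Rab12 without EV_Tm replicate 1. Secretory granule RAB genes higher numbered 2 in place of 1 with plain library size, with the 1 CPM filter and with protein-coding genes alone, where Rab3d also passed. They also numbered 2 without PBS_Tm replicate 2, where Rab44 passed. Other members gained were Rab15 with limma-voom, Rab29 without EV_Tm replicate 3, Rab20 without PBS_Tm replicate 2 and Rab34 without PBS_Tm replicate 3. Among partner genes named, Gcc2, Ppm1m, Rabep2 and Tbc1d2b lost their calls under the alternatives given beside them. The calls of Gdi2, Gorasp1 and Rabep1 were not followed under the alternatives. With the replicate block 24 of the 25 calls were kept. Same-numbered libraries did not deviate together (r = -0.175, -0.002 and -0.104), so the numbers were not treated as pairs.

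The sign of the log2 fold change turned only in genes that did not pass. It turned with plain library size for Rab7 (0.002) and Rab18 (0.004), with no filter for Rab5c (-0.009) and Rab4b (-0.008), with limma-voom for Rab4b (-0.103) and Rab25 (-0.007), with the replicate block for Rab4b (-0.059) and with protein-coding genes alone for Rab18 (0.001). With a library left out the values ranged from -0.04 to 0.037 for Rab5c, -0.061 to 0.003 for Rab18, -0.18 to 0.002 for Rab33a, -0.013 to 0.152 for Rab43, -0.338 to 0.31 for Rab4b and -0.576 to 0.5 for Rab25. The cause of these changes was not tested. Depth limits the genes with 86 to 127 counts in all, Rab4b, Rab15, Rab17 and Rab25.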
